A study of Mus musculus with 9 samples.

Results

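The 10 genes described here encode proteins of the unfolded protein response and of protein folding in the endoplasmic reticulum (ER): Xbp1, Atf6, Hspa5, Hsp90b1, Calr, Hyou1, Pdia4, Sdf2l1, Dnajb9 and Herpud1. They were chosen by name from the 25175 gene symbols of the deposited values. All 10 were present in each of the 9 libraries, and all 10 were among the 11337 genes tested, those that reached 1 FPKM in 3 or more libraries. FPKM is a fragment count scaled to transcript length and library size. The cells were HL-1, a cardiomyocyte line established from mouse atrial tissue. They received 5 µM ivermectin, 10 µM importazole or 0.1% DMSO (vehicle) for 24 h, with 3 libraries per group, and polyadenylated RNA was sequenced on the Ion Proton. Both compounds are known as inhibitors of importin-dependent nuclear import. The labels do not give the DMSO content of the compound groups, nor do they say whether the 3 libraries of a group came from separate cultures, so the p-values measure the spread between these libraries, which may be technical. The question was whether branches of the ER stress response other than the one that runs through ATF4 moved at the level of RNA.

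Unfolded protein in the ER is sensed by IRE1, PERK and ATF6. IRE1 splices the Xbp1 transcript so that it encodes an active transcription factor, ATF6 is cut by site-1 and site-2 proteases (genes Mbtps1 and Mbtps2) to release one, and PERK phosphorylates eIF2α, which favours translation of ATF4. XBP1 and ATF6 act on genes of ER chaperones and of ER-associated degradation, the removal of misfolded proteins from the ER, whereas ATF4 acts mainly on genes of amino acid supply and stress. Kinases other than PERK also phosphorylate eIF2α, so ATF4 can move without ER stress. Splicing of Xbp1, cutting of ATF6 and phosphorylation of eIF2α leave no mark in FPKM summed over a gene, and none of them was measured here.

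The promoters of these genes are known for short elements bound by the factors named above, and the windows that hold one are printed below. RefSeq windows on GRCm38.p6, with 250 bases before and 50 after the annotated start, matched 8 of the 10 genes. Both strands were searched for the ER stress response element (ERSE, CCAAT, then any 9 bases, then CCACG), for ERSE-II (ATTGG, any 1 base, CCACG), for the unfolded protein response element (UPRE, TGACGTG) and for the C/EBP-ATF response element bound by ATF4 (CARE, TGATG, any 1 base, AA). In the sequences below, capitals mark the matches, and each sequence runs 5′ to 3′ on the strand of its gene.
Herpud1, chr8:94386179-94386478, plus strand: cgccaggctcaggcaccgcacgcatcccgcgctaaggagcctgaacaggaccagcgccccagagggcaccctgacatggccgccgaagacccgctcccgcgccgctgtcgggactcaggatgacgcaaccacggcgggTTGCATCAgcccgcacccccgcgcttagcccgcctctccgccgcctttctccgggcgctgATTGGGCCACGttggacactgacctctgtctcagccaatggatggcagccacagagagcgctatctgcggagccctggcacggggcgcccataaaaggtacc
Hspa5, chr2:34771840-34772139, plus strand: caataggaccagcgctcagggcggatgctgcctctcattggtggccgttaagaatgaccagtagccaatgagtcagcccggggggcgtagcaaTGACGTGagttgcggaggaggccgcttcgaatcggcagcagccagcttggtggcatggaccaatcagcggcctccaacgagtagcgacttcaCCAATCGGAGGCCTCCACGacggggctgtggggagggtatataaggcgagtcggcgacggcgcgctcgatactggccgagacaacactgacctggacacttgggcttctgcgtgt
Hsp90b1, chr10:86705395-86705694, minus strand: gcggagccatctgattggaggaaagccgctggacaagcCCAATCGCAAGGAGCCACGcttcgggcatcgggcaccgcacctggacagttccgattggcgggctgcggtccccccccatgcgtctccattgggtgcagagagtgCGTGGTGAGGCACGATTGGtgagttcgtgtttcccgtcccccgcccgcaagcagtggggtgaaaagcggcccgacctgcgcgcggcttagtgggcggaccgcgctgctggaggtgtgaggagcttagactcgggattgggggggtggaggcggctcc
Calr, chr8:84846882-84847181, minus strand: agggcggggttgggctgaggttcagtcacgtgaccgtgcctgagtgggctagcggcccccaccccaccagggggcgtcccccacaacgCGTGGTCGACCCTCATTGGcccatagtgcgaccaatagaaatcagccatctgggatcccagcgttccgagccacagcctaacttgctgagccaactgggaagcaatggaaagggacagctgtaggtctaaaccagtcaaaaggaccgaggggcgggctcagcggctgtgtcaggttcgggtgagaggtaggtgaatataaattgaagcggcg

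Herpud1 was the one gene among the 8 windows with an ERSE-II, which begins 52 bases before the start, and the one with a CARE, which lies on the opposite strand and begins 112 bases before the start. Hspa5 held an ERSE 65 bases before the start and a UPRE 157 bases before it. Hsp90b1 held an ERSE on each strand, and Calr held one on the opposite strand. Over all 32851 RefSeq windows, 0.119% held an ERSE, 0.0365% an ERSE-II, 2.01% a UPRE and 3.97% a CARE. In the lists described below, a CARE was in 6 of 19 windows matched for ATF4 and its targets (Asns, Atf3, Chac1, Nupr1, Slc7a11 and Trib3). These 19 windows are not the same set as the 19 genes of that list that passed the filter. Chac1 and Slc7a11 did not pass it, and Atf3 was not called with either compound. A CARE was in 3 of 37 windows of other folding factors, 1 of 22 of ER-associated degradation and 1 of 33 of translocation and export. An ERSE-II was in 1 of those 37 windows of folding factors. An ERSE was in 4 of the 37, in 2 of 22 and in 0 of 33, in the same order of lists. A UPRE was in 1 of 37, 2 of 22 and 5 of 33. For ATF4 and its targets, 0 of the 19 windows held an ERSE, an ERSE-II or a UPRE. The 9 windows of sensors and processing enzymes held no match to any element. Any bearing of these elements on the changes of RNA was not tested. A match of letters is not a bound site, and the windows of Xbp1, Pdia4, Sdf2l1 and Dnajb9 without a match show only that these letters are not in them. Matches did not overlap one another. Positions are counted from the RefSeq start, and the GENCODE bounds of a gene given below can begin elsewhere.

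Of the 10 genes, Herpud1 changed in the cells given either compound, and no chaperone passed the test in any comparison. Herpud1, which encodes an ER membrane protein of ER-associated degradation, rose with ivermectin by 0.63 and with importazole by 0.56 on the log2(FPKM + 1) scale. The other 9 genes lay between -0.18 and 0.25 with ivermectin and between -0.08 and 0.27 with importazole, and none of them had a limma adjusted p under 0.05. Among the 10 genes, 1 was thus called with ivermectin, where 4.31% of all genes tested were called, and 1 with importazole, where 2.26% were called. Between ivermectin and importazole 0 of the 10 were called by limma, where 3.42% of all genes tested were called. At an unadjusted p under 0.05, 2 of the 10 were lower in that comparison, as were 12.8% of all genes tested. At the same threshold 3 were higher with ivermectin than with vehicle (Herpud1, Atf6 and Xbp1) and 0 lower. Of all genes tested, 10.5% were higher and 10.3% lower. With importazole 2 were higher (Herpud1 and Atf6) and 0 lower, where 11.3% and 4.48% of all genes tested were. The median change of the 10 genes was 0.03 with ivermectin and 0.12 with importazole, beside 0.01 and 0.04 over all genes tested.

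**Figure D1:**
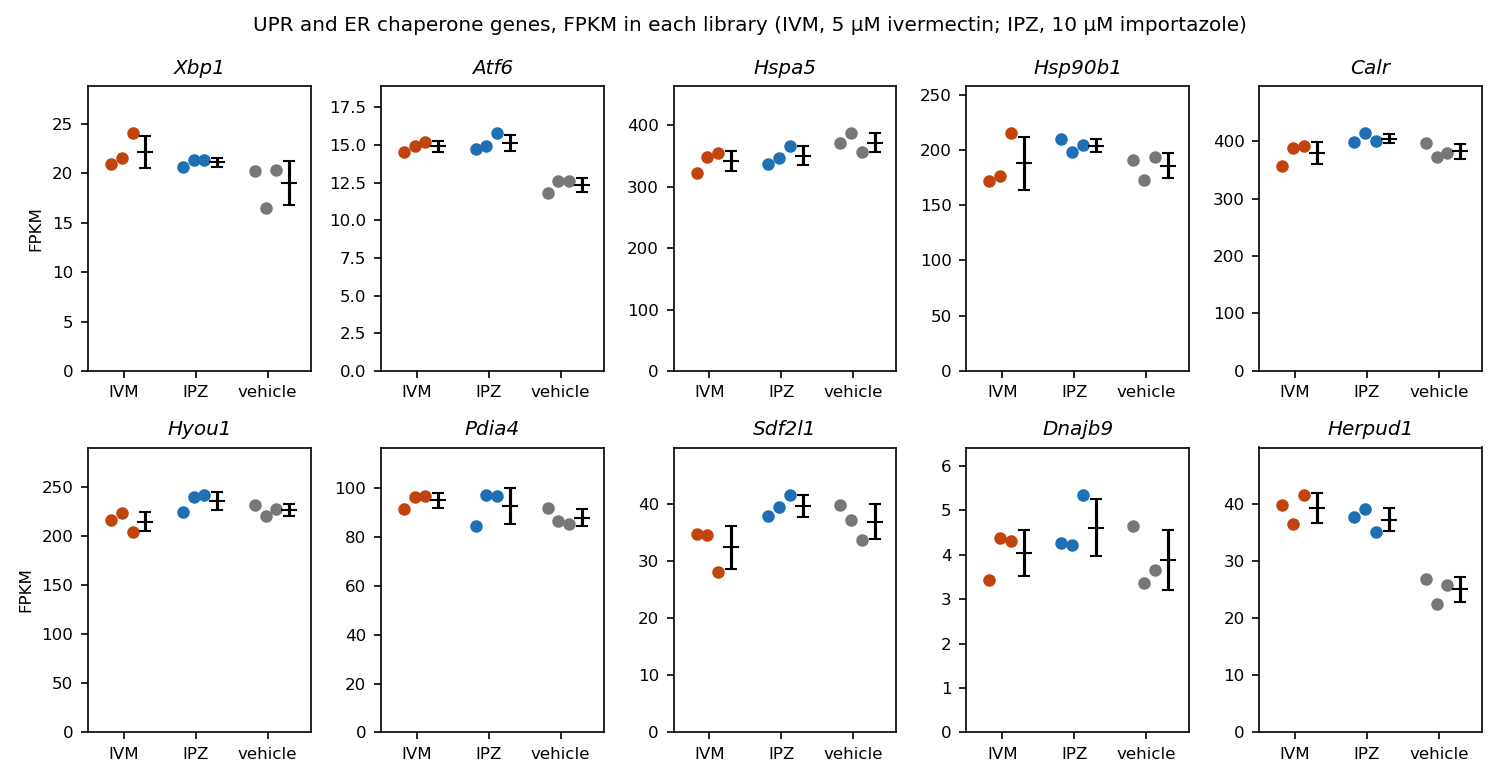
FPKM of each of the 10 genes in each library (points; 5 µM ivermectin, IVM; 10 µM importazole, IPZ; vehicle), with the mean and SD of 3 libraries beside them, on linear axes that start at 0. For Herpud1 the treated libraries sit between 35.0 and 41.5 FPKM, all above the vehicle libraries at 22.5 to 26.8 FPKM, and for the 4 chaperones of the upper and lower rows the groups lie close together.

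Herpud1 (chr8:94386438-94395377 on GRCm38, plus strand) had 39.8, 36.5 and 41.5 FPKM in the ivermectin libraries, 37.7, 39.0 and 35.0 FPKM in the importazole libraries, and 26.8, 22.5 and 25.8 FPKM in the vehicle libraries. Every treated library lay above every vehicle library, while the libraries of both compounds overlapped each other. The mean was 39.3 ± 2.57 FPKM with ivermectin, 37.2 ± 2.04 FPKM with importazole and 25.0 ± 2.23 FPKM with vehicle (SD, n = 3 each), which is 1.57 and 1.49 times the vehicle mean. In the limma fit the log2 change was 0.63 (SE 0.0816, adjusted p = 0.00128) with ivermectin and 0.56 (SE 0.0816, adjusted p = 0.00430) with importazole. Between the compounds it was 0.07, with a 95% interval of -0.11 to 0.25 and a limma adjusted p of 0.691, so any difference between them is bounded by that interval and was not resolved. In human cells HERPUD1 is known as a target of both the ATF6 and XBP1 branches and of ATF4.

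Both changes of Herpud1 held under every one of the 19 alternative settings run for a single gene, with log2 changes of 0.52 to 0.68 for ivermectin (limma adjusted p 6.41e-04 to 0.0166) and 0.49 to 0.61 for importazole (0.00293 to 0.0297). This includes leaving out vehicle 2 and ivermectin 3 together, the 2 libraries that list the abundant transcript Yam1 at 0. The change was then 0.52 for ivermectin and 0.49 for importazole. Both comparisons share the 3 vehicle libraries, so the rise with one compound is not independent of the rise with the other. A fibroblast marker, the collagen receptor gene Ddr2, moved with Herpud1 and rose by 0.59 and 0.49 (log2). The summed level of 7 fibroblast markers, of which 2 were expressed above the filter, was 37.0 to 39.0 FPKM with ivermectin, 34.8 to 37.1 FPKM with importazole and 23.7 to 27.0 FPKM with vehicle. Most of it was Ddr2, at 36.1, 33.6 and 23.7 FPKM. Col1a1 averaged 0.805, 0.849 and 0.704 FPKM in the same order and was not called, and the other 5 markers were below 1 FPKM in every group. Of those 5, Dcn, Pdgfra and Col1a2 averaged less in both treated groups than in vehicle. Col3a1 averaged more in both, at 0.490 FPKM with ivermectin and 0.599 with importazole against 0.359 with vehicle. Postn averaged 0.140, 0.236 and 0.180 FPKM in the same order, less with ivermectin and more with importazole. None of these 5 passed the filter, so their changes were not tested. No fibroblast marker was at 0 in all libraries of a group. Their part in the Herpud1 result was not tested.

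**Figure D2:**
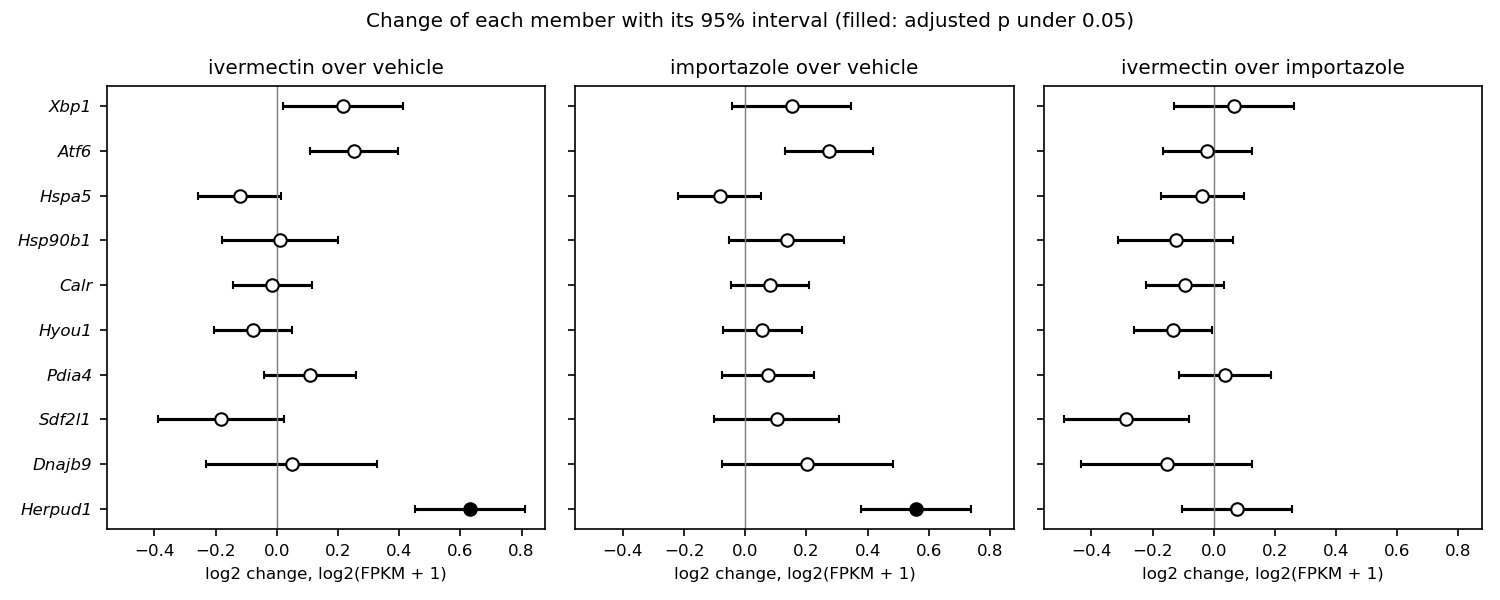
Log2 change of each of the 10 genes with its 95% interval from the limma fit, for ivermectin over vehicle, importazole over vehicle and ivermectin over importazole (filled points, adjusted p under 0.05). Herpud1 stands to the right at 0.63 and 0.56 in the comparisons with vehicle, and every interval of the chaperone genes Hspa5, Hsp90b1, Calr and Hyou1 in those comparisons includes 0.

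Neither transcription factor gene passed the test. Atf6 (chr1:170704674-170867771, minus strand), which encodes the ER membrane sensor that is cut to give a transcription factor, had 14.5, 15.0 and 15.2 FPKM with ivermectin, 14.7, 14.9 and 15.8 FPKM with importazole and 11.8, 12.6 and 12.6 FPKM with vehicle. All 6 treated libraries lay above all 3 vehicle libraries. The log2 change was 0.25 (SE 0.0656, limma adjusted p = 0.0578) with ivermectin and 0.27 (SE 0.0656, adjusted p = 0.0606) with importazole, just outside the threshold of 0.05. With genes filtered at 5 FPKM in place of 1, the same changes had limma adjusted p = 0.0496 and 0.0491, and under the other 18 alternatives neither passed.

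Xbp1 (chr11:5520659-5525893, plus strand), whose unspliced and spliced transcripts are counted together here, had 21.0, 21.6 and 24.0 FPKM with ivermectin, 20.6, 21.4 and 21.4 FPKM with importazole and 20.2, 16.5 and 20.4 FPKM with vehicle. The treated libraries again lay above the vehicle libraries, narrowly so for importazole, and vehicle 2 was the lowest of all. The log2 change was 0.22 with ivermectin (95% interval 0.02 to 0.41, limma adjusted p = 0.198) and 0.15 with importazole (-0.04 to 0.35, adjusted p = 0.449). Without vehicle 2 the changes of Xbp1 were 0.12 and 0.06, and without vehicle 2 and ivermectin 3 the ivermectin change was 0.07.

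The 4 chaperone genes were among the most abundant transcripts of the cells and stayed close to their vehicle levels. Hspa5 (chr2:34771970-34777547, plus strand) encodes BiP, the ER Hsp70 that holds the sensors inactive until unfolded protein draws it away, and is a widely used marker of ER stress. It had 323, 349 and 354 FPKM with ivermectin, 338, 348 and 367 FPKM with importazole and 372, 387 and 357 FPKM with vehicle. The ivermectin libraries all lay below the vehicle libraries, and those of importazole overlapped them. The log2 change was -0.12 with ivermectin (95% interval -0.26 to 0.01, limma adjusted p = 0.296) and -0.08 with importazole (-0.22 to 0.05, adjusted p = 0.554).

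Hsp90b1 (chr10:86690209-86705509, minus strand), the gene of the ER Hsp90 GRP94, had 172, 177 and 215 FPKM with ivermectin, 209, 198 and 204 FPKM with importazole and 191, 173 and 193 FPKM with vehicle. Ivermectin 3 stood apart from the other ivermectin libraries, and the log2 change of 0.01 turned to -0.09 without it. Calr (chr8:84841850-84846934, minus strand), the gene of the calcium-binding lectin chaperone calreticulin, had 357, 388 and 391 FPKM with ivermectin, 399, 413 and 400 FPKM with importazole and 397, 372 and 379 FPKM with vehicle. Importazole lay above vehicle for both genes in every library, with log2 changes of 0.14 (limma adjusted p = 0.483) and 0.08 (adjusted p = 0.547). A processed pseudogene, Calr-ps, is listed at a mean of 31.8 FPKM, so how reads were divided between it and Calr could affect the level of Calr.

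Hyou1 (chr9:44379490-44392369, plus strand), which encodes GRP170, a nucleotide exchange factor of BiP, had 216, 223 and 204 FPKM with ivermectin, 225, 239 and 241 FPKM with importazole and 231, 220 and 228 FPKM with vehicle. Its libraries did not overlap between ivermectin and importazole, with a log2 change of -0.13 and a limma adjusted p of 0.248. Over these 4 chaperone genes the 95% intervals of all changes lay between -0.26 and 0.20 with ivermectin and between -0.22 and 0.32 with importazole.

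Pdia4 (chr6:47796141-47813430, minus strand), the gene of the disulfide isomerase ERp72, had 91.6, 96.3 and 97.0 FPKM with ivermectin, 84.3, 97.2 and 96.7 FPKM with importazole and 91.8, 86.6 and 85.4 FPKM with vehicle. A microRNA gene, Mir704, lies in one of its exons on the same strand. The log2 changes were 0.11 (limma adjusted p = 0.391) and 0.07 (adjusted p = 0.655).

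Sdf2l1 (chr16:17130138-17132383, minus strand), which encodes an ER-resident partner of BiP complexes, had 34.7, 34.5 and 28.1 FPKM with ivermectin, 37.8, 39.4 and 41.6 FPKM with importazole and 39.8, 37.2 and 33.7 FPKM with vehicle. It was lower in every ivermectin library than in every importazole library, by -0.29 on the log2 scale (95% interval -0.49 to -0.08, limma adjusted p = 0.126). Against vehicle its change was -0.18 with ivermectin and 0.10 with importazole, and the libraries overlapped in both cases. The ivermectin change of Sdf2l1 was -0.08 without ivermectin 3, and the importazole change was 0.04 without vehicle 3 and 0.16 without vehicle 1.

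Dnajb9 (chr12:44205559-44210326, minus strand), the gene of the BiP cochaperone ERdj4 and a well-known target of spliced XBP1, was the least abundant of the 10 genes. It had 3.44, 4.37 and 4.31 FPKM with ivermectin, 4.27, 4.21 and 5.34 FPKM with importazole and 4.64, 3.35 and 3.65 FPKM with vehicle. The groups overlapped in all 3 comparisons. Its intervals were the widest of the 10, at -0.23 to 0.33 with ivermectin and -0.08 to 0.48 with importazole, and the importazole change of 0.20 was 0.11 without importazole 3 and 0.31 without vehicle 1. Counting without strand could not separate Dnajb9 from the antisense Mir5627, which was listed at a mean of 0 FPKM, nor Hsp90b1 from the antisense 1810014B01Rik, at 0.0219 FPKM.

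Non-overlapping groups were common among all genes and are read against that background. With ivermectin 3 of the 10 genes lay above vehicle in every library (Herpud1, Atf6 and Xbp1) and 1 below (Hspa5), beside 12.4% of all genes tested above and 12.2% below. With importazole 5 lay above (Herpud1, Atf6, Xbp1, Hsp90b1 and Calr), beside 16.5%, and 0 below, beside 7.07%. Between ivermectin and importazole 3 were lower with ivermectin (Calr, Hyou1 and Sdf2l1), beside 16.1%, and 0 were higher, beside 8.04%.

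**Figure D3:**
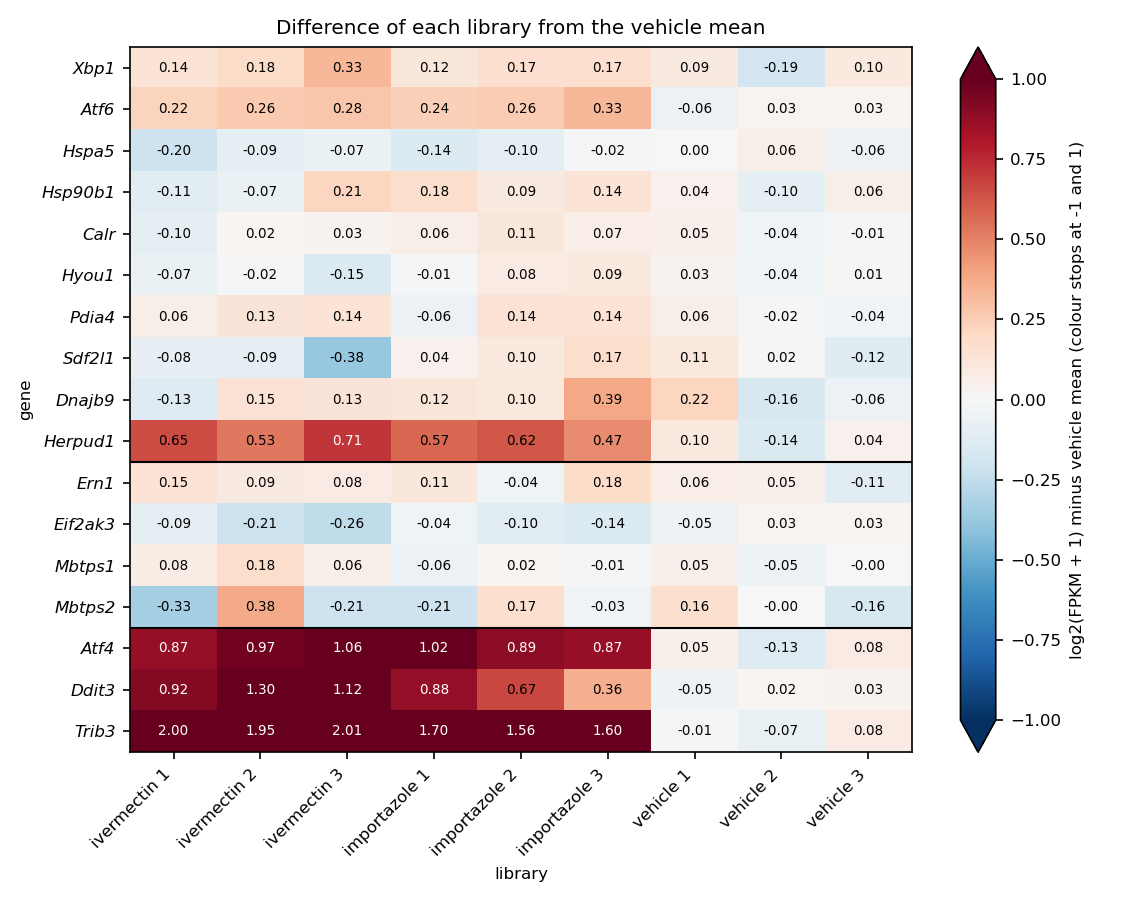
Difference of each library from the vehicle mean on the log2(FPKM + 1) scale for the 10 genes, 4 genes of the sensors and proteases, and Atf4, Ddit3 and Trib3 (rows), with ivermectin, importazole and vehicle libraries from left to right. Herpud1 is above the vehicle mean by 0.47 to 0.71 in all 6 treated libraries, while Hspa5 is below it by -0.20 to -0.02 in the same libraries.

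The order of the levels in vehicle cells set the chaperones far above the regulators. Calr averaged 383 ± 12.9 FPKM and Hspa5 372 ± 15.1 FPKM, and these 2 overlapped between libraries. Hyou1 followed at 226 FPKM, Hsp90b1 at 186, Pdia4 at 87.9, Sdf2l1 at 36.9, Herpud1 at 25.0, Xbp1 at 19.0, Atf6 at 12.4 and Dnajb9 at 3.88 FPKM. From Hspa5 downward no gene overlapped the next one in the vehicle libraries. Calr ranked 148 among the 11337 genes tested and Dnajb9 ranked 8638.

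Herpud1 changed its place relative to the other genes. The log2 level of Herpud1 minus the mean of the other 9 genes was -0.68, -0.88 and -0.71 in the ivermectin libraries, -0.85, -0.84 and -1.05 in the importazole libraries and -1.32, -1.45 and -1.31 in the vehicle libraries. The treated libraries did not overlap the vehicle libraries on this measure, which compares genes within a library and is unaffected by a scaling factor common to that library apart from the pseudocount.

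Outside the 10 genes, 134 of 138 listed ER genes were expressed above the filter, and none of them was called higher with either compound, apart from 1 with ivermectin after quantile normalization. These were sensors and processing enzymes, other folding factors, factors of ER-associated degradation, and translocation and export genes. With ivermectin 0 were higher and 4 lower by limma at an adjusted p under 0.05, where 1.79% of all genes tested were called higher and 2.52% lower. At an unadjusted p under 0.05, 9 of the 134 were higher and 17 lower, where 10.5% of all genes tested were higher and 10.3% lower. With importazole 0 were called in either direction, where 1.69% of all genes were called higher and 0.565% lower, and 21 were higher and 4 lower at an unadjusted p under 0.05, where 11.3% of all genes tested were higher and 4.48% lower. Without ivermectin 3, which changes the shared estimate of the spread, 1 was called lower with importazole. The median change over the 134 genes was -0.02 with ivermectin and 0.05 with importazole.

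The 4 genes that fell with ivermectin were Creb3l2, Sec24d, Sec31a and Kdelr3. Creb3l2, an ER-bound transcription factor known for driving genes of secretion, had 15.6, 16.3 and 15.9 FPKM with ivermectin, 21.7, 20.8 and 21.5 FPKM with importazole and 22.7, 20.3 and 20.6 FPKM with vehicle. Its ivermectin libraries lay below all others, with a log2 change of -0.39 against vehicle (limma adjusted p = 0.00727) that was called under all 19 alternatives. Sec24d, a cargo-binding subunit of the COPII coat of ER export vesicles, fell by 0.39 (limma adjusted p = 0.0155), a call that ended without vehicle 2, vehicle 3 or ivermectin 2. Sec31a, a subunit of the outer COPII coat, fell by 0.25 (adjusted p = 0.0417), and Kdelr3, a receptor that returns ER proteins from the Golgi, fell by 0.48 (adjusted p = 0.0360). The call of Sec31a held without ivermectin 2 and ended without any other single library, and that of Kdelr3 held without ivermectin 3 and ended without any other. The count of lower genes was 2 without vehicle 1, ivermectin 1 or any one importazole library, and 1 without vehicle 2 or vehicle 3.

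Set against importazole, ivermectin gave 0 higher and 7 lower of the 134 genes, where 0.714% of all genes tested were called higher and 2.71% lower. At an unadjusted p under 0.05, 4 were higher and 32 lower, where 6.13% of all genes tested were higher and 12.8% lower. Ero1l, the oxidase that drives disulfide formation, had 10.2, 10.7 and 12.6 FPKM with ivermectin and 16.8, 15.3 and 17.1 FPKM with importazole, beside 12.9, 13.1 and 13.9 FPKM with vehicle. Its libraries did not overlap between the compounds, and vehicle lay between them. The change was -0.52 (limma adjusted p = 0.00838), and Creb3l2 fell by 0.40 (adjusted p = 0.00707). Both were called under all 19 alternatives.

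The other 5 were Dnajb11 (the BiP cochaperone ERdj3, -0.26), Vimp (selenoprotein S of the degradation machinery, -0.35), Stt3b (a catalytic subunit of the oligosaccharyltransferase, -0.28), Kdelr3 (-0.50) and Kdelr2 (-0.37). The call of Vimp ended without ivermectin 2 or importazole 2. That of Kdelr3 ended without vehicle 2, ivermectin 1, ivermectin 2 or any importazole library. Among the single libraries left out, Stt3b held only without vehicle 1 or importazole 1, Kdelr2 only without vehicle 1 and Dnajb11 only without ivermectin 3. The count of lower genes was 4 without vehicle 3 or importazole 1, 3 without vehicle 2, ivermectin 1 or importazole 3, and 2 without ivermectin 2 or importazole 2.

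Ern1, Eif2ak3, Mbtps1 and Mbtps2 did not pass the test with either compound. Ern1, the gene of IRE1, averaged 3.27 ± 0.106 FPKM with ivermectin, 3.21 ± 0.332 FPKM with importazole and 2.97 ± 0.260 FPKM with vehicle (SD, n = 3 each). Eif2ak3, the gene of PERK, averaged 4.71 ± 0.348, 5.08 ± 0.207 and 5.49 ± 0.202 FPKM in the same groups, with log2 changes of -0.19 (limma adjusted p = 0.219) and -0.10 (adjusted p = 0.614). Mbtps1 averaged 32.6, 29.8 and 30.2 FPKM, and Mbtps2 averaged 3.78, 3.79 and 3.86 FPKM. Of 7 listed transcripts known to be cut by IRE1 when its RNase is active, such as Bloc1s1 and Sparc, 6 were expressed above the filter and 0 were called by limma with either compound. At an unadjusted p under 0.05, 1 was higher and 2 lower with ivermectin, where 10.5% and 10.3% of all genes tested were. The higher one was Hgsnat (log2 change 0.20, limma adjusted p = 0.234). The lower ones were Pmp22 (-0.23, adjusted p = 0.0776) and Col6a1 (-0.31, adjusted p = 0.153). With importazole 0 passed that threshold in either direction, where 11.3% of all genes tested were higher and 4.48% lower.

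Genes of the ATF4 branch rose in the same libraries. Of 22 listed genes of ATF4 and its targets, 19 were expressed above the filter. Limma called 13 higher with ivermectin and 15 with importazole, where 1.79% and 1.69% of all genes tested were called higher. In both cases 0 were lower, where 2.52% and 0.565% of all genes tested were called lower. Genes not called with either compound included Ppp1r15a, with log2 changes of 0.006 with ivermectin and 0.08 with importazole. They also included Atf3 (0.14 and -0.04) and Ppp1r15b (0.21 and 0.24). The list was drawn up with earlier results of these libraries known, so its direction is not independent evidence. The median log2 change of the list was 0.76 with ivermectin and 0.58 with importazole, against 0.03 and 0.12 for the 10 genes described above. The importazole count was 9 without vehicle 2 or without importazole 1, and it was 9 with no filter on low values.

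**Figure D4:**
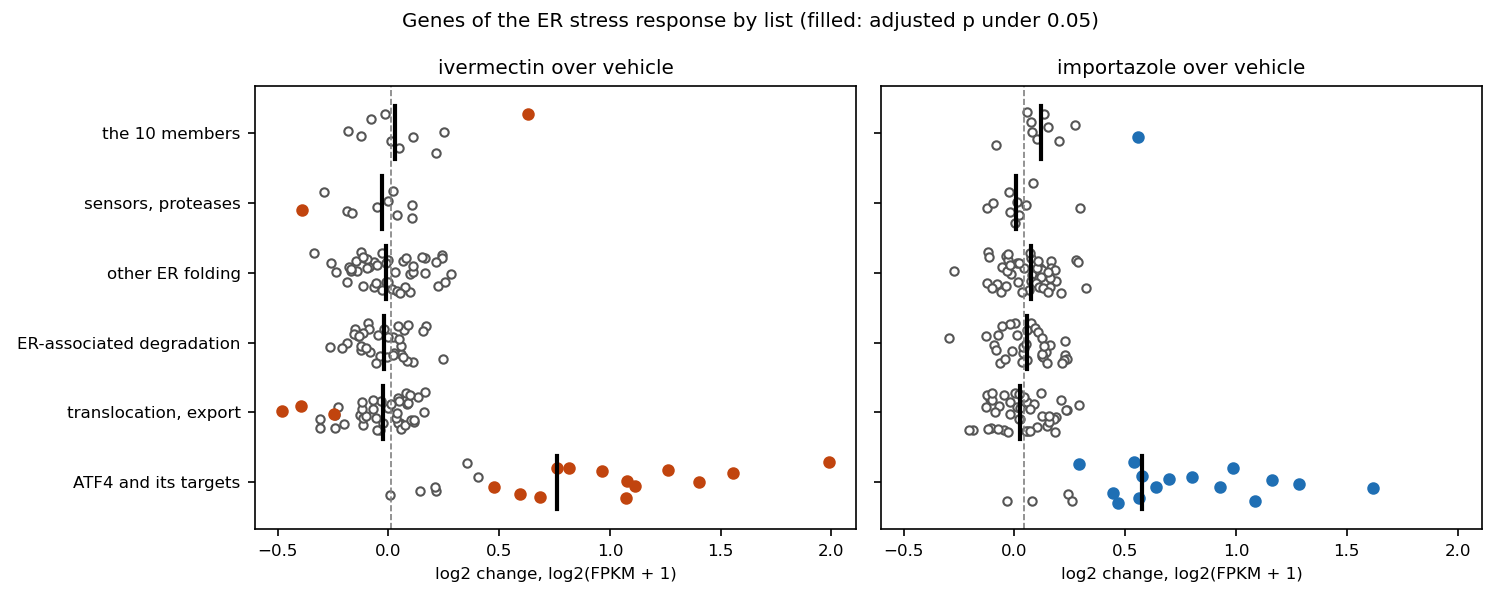
Log2 change of every tested gene of 6 lists (points; filled, adjusted p under 0.05; vertical bars, list medians; dashed line, median of all genes tested) for ivermectin over vehicle and importazole over vehicle. The 10 genes hold 1 filled point in each panel, and the list of ATF4 and its targets holds 13 and 15, with medians of 0.76 and 0.58.

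Atf4 itself had 146, 156 and 167 FPKM with ivermectin, 163, 148 and 147 FPKM with importazole and 82.4, 72.6 and 84.1 FPKM with vehicle. Its log2 change was 0.96 with ivermectin (limma adjusted p = 4.21e-05) and 0.93 with importazole (adjusted p = 1.01e-04). Ddit3, which encodes the stress factor CHOP, had 34.9, 45.9 and 40.3 FPKM with ivermectin, 34.0, 29.2 and 23.4 FPKM with importazole and 17.3, 18.2 and 18.4 FPKM with vehicle. Both treated groups lay above vehicle without overlap, with changes of 1.12 (adjusted p = 5.33e-04) and 0.64 (adjusted p = 0.0274), and the second call ended under 8 of 19 alternatives, among them leaving out vehicle 1, vehicle 2, vehicle 3, importazole 1 or importazole 2. Trib3, a pseudokinase gene, changed by 1.99 and 1.62. Between the compounds the change of Trib3 was 0.37 (limma adjusted p = 0.0117), which was not called without importazole 2 or importazole 3.

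The genes whose levels followed those of Herpud1 and Hspa5 most closely had none in common among the first 5. Over the 9 libraries and 7987 genes with a mean of at least 5 FPKM, the highest Pearson correlations with Herpud1 on the log2(FPKM + 1) scale were those of AC118721.1 (0.977), Rpl4 (0.974), Gmfb (0.974), Atf4 (0.973) and Fbxo6 (0.972). Fbxo6 encodes a ubiquitin ligase subunit that binds glycoproteins and had 16.0, 14.0 and 17.5 FPKM with ivermectin, 15.9, 16.1 and 14.8 FPKM with importazole and 11.6, 10.8 and 12.1 FPKM with vehicle. With Hspa5 the highest were Pitpnc1 (0.942), Pls3 (0.940), Tamm41 (0.920), Lclat1 (0.911) and Ext1 (0.906), which encode proteins of lipid transfer, actin bundling, mitochondrial lipid synthesis, cardiolipin remodelling and heparan sulfate synthesis. No other chaperone gene was close to Hspa5, with 0.210 for Hyou1, 0.186 for Calr and -0.01 for Hsp90b1. Herpud1 and Hspa5 stood at -0.75. With Herpud1, Atf6 stood at 0.866 (rank 164 of 7987) and Xbp1 at 0.811 (rank 327). Pdia4 stood at 0.563 with Herpud1, Hsp90b1 at 0.381 and Calr at 0.253, while Hyou1 stood at -0.17 and Sdf2l1 at -0.26. These values are descriptions over 9 libraries that share 3 groups, so a gene that differs between groups as Herpud1 does ranks high.

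Facts of the libraries bear on all of these values. Summed FPKM was 365259 to 416748 per library, lowest in vehicle 2, and the number of reads behind them is unknown, since the values do not step in whole reads. Vehicle 2 and ivermectin 3 list Yam1 at 0, while it made up 5.86% to 10.43% of summed FPKM elsewhere. Libraries of 1 group correlated at 0.984 to 0.992, and libraries of different groups at 0.980 to 0.990. Genes that define cardiomyocytes were expressed in every group, with sums over 8 markers of 3375 to 3685 FPKM with ivermectin, 3804 to 4111 with importazole and 4032 to 4461 with vehicle. These sums join markers that moved apart. Limma called 0 of the 8 higher and 3 lower with ivermectin, and 1 higher and 2 lower with importazole. That is 37.5% in each case, where 4.31% and 2.26% of all genes tested were called. The log2 changes ran from -0.46 to 0.23 with ivermectin and from -0.43 to 0.62 with importazole. The sums of 4 smooth muscle markers were 1158 to 1279, 1173 to 1285 and 1347 to 1404 FPKM with ivermectin, importazole and vehicle. Most of each sum was Acta2, at 1095, 1078 and 1215 FPKM in the same order. Tagln averaged 137, 157 and 166 FPKM, and Cnn1 averaged 0.773, 0.816 and 1.32 FPKM. These 3 averaged less in both treated groups, and limma called 0 of them. Myh11 averaged 0.101, 0.0958 and 0.0507 FPKM, more in both treated groups. It did not pass the filter, so its change was not tested. The part of these markers in the results above was not tested, and fewer cells of a type cannot be told apart from less RNA per cell. Over all genes, 192 were called higher and 64 lower with importazole, a split that became 159 and 117 after quantile normalization and 159 and 119 after median-of-ratios scaling. Between ivermectin and importazole, 81 were higher and 307 lower, which became 191 and 274 after quantile normalization and 163 and 276 after median-of-ratios scaling.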

How the data were processed

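The authors deposited 1 file per library with a gene symbol and an FPKM value, per the file headers. Cufflinks, STAR, Bowtie and Bowtie2 and the builds GRCm38 and mm10 appear in the submitters' processing notes. The annotation and use of strand were not given in the sources used. FPKM is relative to the fragments of the whole library. Values of 48 repeated symbols were summed. The 11337 genes that reached 1 FPKM in 3 or more libraries were compared on the log2(FPKM + 1) scale, without scaling between libraries, by limma 3.58.1 in R 4.3.3 (group as the only term, 9 libraries, intensity trend, robust moderation). Changes on this scale understate those of low genes. Genes were called at a Benjamini-Hochberg adjusted p under 0.05 over all genes tested, and tests are two-sided. The procedure was tested on simulated data. The members, gene lists, motifs and alternatives were chosen with earlier results of these data known. Genes named were the 10 members, set genes of the sensors and of the ATF4 list, up to 4 called genes with the smallest p of each other list and the 5 genes most correlated with Herpud1 and with Hspa5. Bloc1s1, Sparc, Hgsnat, Pmp22, Col6a1, and the fibroblast and smooth muscle markers were named after their values were seen. Other genes of the ATF4 list, named for a CARE or as not called, were chosen likewise. Locations came from GENCODE M21 on GRCm38, and promoters from RefSeq on GRCm38.p6.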

Additional observations from a re-analysis of the deposited data

How the results depend on the processing

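The number of members called stayed at 1, 1 and 0 for ivermectin over vehicle, importazole over vehicle and ivermectin over importazole under all alternatives except the 5 FPKM filter, which gave 2 with ivermectin and 2 with importazole through Atf6. Counts over all genes moved more. For ivermectin over vehicle 489 genes became 211 with no filter, 190 without vehicle 2 and ivermectin 3 together, 273 in a fit to 6 libraries, 173 at an adjusted p under 0.01, and 243 to 398 without single libraries. For importazole over vehicle 256 became 133, 161 and 108 with no filter, without both libraries and at 0.01, and 127 to 319 without single libraries. For ivermectin over importazole 388 became 177, 231 and 150 in the same order, 257 with the replicate block, and 176 to 396 without single libraries. The replicate block also gave 354 genes for ivermectin and 175 for importazole over vehicle and left the member counts as they were, and it ended the calls of Ddit3 with importazole, of Sec31a and Kdelr3 with ivermectin, and of Dnajb11, Stt3b, Kdelr2 and Kdelr3 between the compounds. Same-numbered libraries did not deviate together more than others (correlations of -0.21 to 0.145, against -0.219 to 0.307 for different numbers). The labels do not say whether equal numbers mark pairs, and these correlations cannot settle it. The highest, 0.307, was that of vehicle 2 with ivermectin 3, the libraries that list Yam1 at 0.

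Changes that turned in sign were all uncalled and near 0. With ivermectin over vehicle, Hsp90b1 became -0.030 after quantile normalization and -0.14 without both libraries, and lay at -0.090 to 0.071 without single libraries. Dnajb9 became -0.069 without both libraries and lay at -0.029 to 0.16 without single ones. Calr lay at -0.038 to 0.028, and Mbtps2 at -0.27 to 0.085 and at 0.025 without both. With importazole over vehicle, Hyou1 became -0.0025 after quantile normalization, and without single libraries Mbtps1 lay at -0.045 to 0.0072 and Mbtps2 at -0.12 to 0.067. Between the compounds, Atf6 became 0.016 and Hspa5 0.0014 after median-of-ratios scaling, and 0.028 and 0.051 after quantile normalization, and Atf4 became -0.011 without both libraries. Without single libraries Atf6 lay at -0.040 to 0.0063, Hspa5 at -0.064 to 0.0033, Pdia4 at -0.030 to 0.071 and Atf4 at -0.011 to 0.082. The cause of these shifts was not tested. The precision of all changes is limited by 3 libraries per group and an unknown depth.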
